A study of Mus musculus with 18 samples.

Results

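Zinc finger proteins of the C2H2 kind are the largest class of DNA-binding factors in the mouse, and many of their genes carry the plain name Zfp followed by a number. Here they were taken as the protein-coding genes whose symbol is Zfp and digits only, without Zfp36 and Zfp598, which act on RNA and on stalled ribosomes, and without Zfp42, a marker of naive stem cells. Of 362 such genes in the count table, 239 reached 3 CPM (counts scaled to a common library size) in at least 3 of the 18 libraries and are the members described, out of 12705 genes tested in all. The other 123 fell below that level. Zfp59, Zfp68 and Zfp583 lay just outside, with 2.96, 2.97 and 2.98 CPM in their third-highest library, and Zfp9, Zfp39 and Zfp988 just inside, with 3.05, 3.09 and 3.12 CPM. Only 3 members passed through libraries of 1 group alone.

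The libraries came from V6.5 mouse embryonic stem cells (ESCs) grown with serum, LIF and the 2i inhibitors. Wild type (WT) cells were compared with cells in which Ddx6, an RNA helicase that represses translation and takes part in mRNA decay, had been knocked out (KO) with CRISPR. Cycloheximide-treated lysates were separated on sucrose gradients, and the monosome, low polysome (2 to 4 ribosomes) and high polysome (at least 4 ribosomes) fractions of 3 gradients per genotype were sequenced from the 3′ ends of their RNAs. KO gradient 1 was made from clone 1, and KO gradients 2 and 3 from clone 2, so gradient 1 is the only view of its clone. The labels do not state that the WT gradients came from separate cultures, so p-values measure the spread between these gradients, which may be technical.

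A C2H2 finger is a short loop held by a zinc ion between a pair of cysteines and a pair of histidines, and fingers in tandem read successive bases of DNA. In mammals many such proteins also carry a KRAB domain, which binds TRIM28 and through it the histone methyltransferase SETDB1. The KRAB genes lie in clusters of tandem copies and are known in ESCs for silencing retroelements and for keeping DNA methylation at imprinted regions. Members without a KRAB domain include activators, chromatin factors and proteins that bind RNA.

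Libraries held 2543617 to 11474550 gene counts, fewest in the WT monosome, and the members held 0.463% to 0.721% of them. Ddx6 itself was counted at 143 to 212 CPM in the WT libraries and at 9.68 to 82.7 CPM in the KO libraries, where the 3 libraries of clone 1 were the highest of their fractions. Its 3′ tags need not cover the edited site. All 8 ESC markers were detected, and their summed level ran from 1737 to 3349 CPM over the libraries. Summed fibroblast, endoderm and mesoderm markers stayed at or below 10.97 CPM, and 1 to 3 of the 5 fibroblast markers were at 0 in all 3 libraries of a group. Neural markers summed to 25.1 to 68.6 CPM. The epiblast-like markers Fgf5, Pou3f1 and Otx2 summed to 35.8 to 80.3 CPM in the WT libraries and 11.7 to 26.2 CPM in the KO libraries, and 1 of the 3 was at 0 throughout. Their part in the KO differences of the members was not tested.

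Most members were weakly expressed. Their mean over the libraries ran from 1.59 to 362 CPM with a median of 9.32, and 112 of 239 had a mean of at least 10 CPM. Coding lengths ran from 228 to 8094 nucleotides with a median of 1716, against 1359 for the other protein-coding genes. By the pattern cysteine, 2 to 4 residues, cysteine, 12 residues, histidine, 3 to 5 residues, histidine in the translated coding sequence, members had 0 to 36 fingers with a median of 10. Zfp185, Zfp330, Zfp365, Zfp703 and Zfp839 had none. A KRAB A box was found by pattern in 99 members and not in 140. The pattern is strict, since Zfp57, a known KRAB protein, was among those it missed. On chromosome 7 lay 63 members, and 110 sat in 14 clusters of at least 5 members with gaps of at most 1 Mb. Base composition differed within the family. Median coding GC was 43.8% in KRAB members and 53.8% in the others, against 53.6% over the 11530 protein-coding genes that are no member and 50.3% in other genes with 5 or more fingers. Median 3′ UTR length was 1226 nucleotides in the members, 905 in the non-members and 1588 in the other genes with 5 or more fingers.

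To ask how heavily these mRNAs were loaded with ribosomes in WT cells, high polysome abundance was set over monosome abundance, a ratio called translation level here. In WT the members sat toward the monosome. The ratio was lower in the high polysome for 130 of 239 members and higher for 18, at an adjusted p under 0.05 (limma, all 12705 genes), where 32.2% of all genes tested were lower and 28.9% higher. The median log2 ratio was -0.69 (interquartile range -1.31 to -0.13), against -0.02 over all genes. In single gradients the median was -0.68, -0.55 and -0.67, and the other protein-coding genes had 0.07, 0.08 and 0.09. The low polysome showed the same side with smaller values. There the median log2 ratio to the monosome was -0.44, with 98 members lower and 17 higher, where 22.8% of all genes were lower and 20.4% higher. The 17 became 11 without WT gradient 2 and 10 without WT gradient 3.

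**Figure D1:**
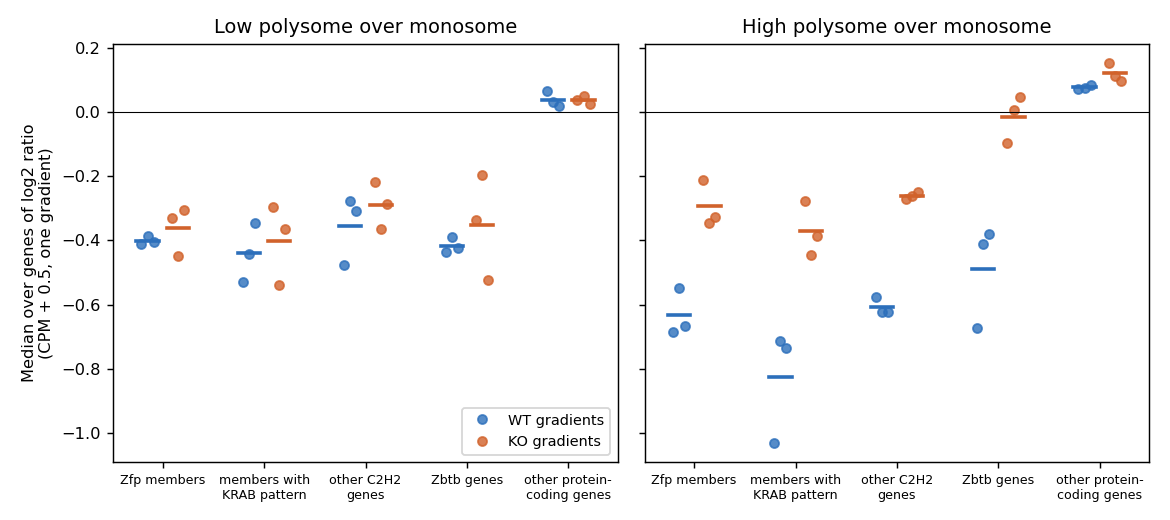
Median over genes of the log2 ratio of low polysome (left) or high polysome (right) to monosome, CPM plus 0.5, in each of 3 WT (blue) and 3 KO (orange) gradients. Points are gradients and bars are their means. The Zfp members lie at -0.68 to -0.55 in WT and -0.34 to -0.21 in KO for the high polysome, below the other protein-coding genes in every gradient.

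The WT values were also low beside genes of the same length and abundance. Each member was set against the median of the non-members in its class, in a grid of 10 classes of coding length by 5 of mean abundance with 208 to 236 genes each. The median member lay 0.66 below its class on the log2 scale for the high polysome and 48 of 239 lay above. The size of that difference over the 3 WT gradients was 0.615 ± 0.089 (SD, n = 3). This comparison is a description and carries no test. Members with a coding length up to 1000 nucleotides had a median log2 ratio of -0.19 (n = 21), members of 1000 to 1500 had -0.80 (n = 56), of 1500 to 2000 had -0.75 (n = 90), of 2000 to 3000 had -0.86 (n = 48) and above that -0.36 (n = 24). Other protein-coding genes of the same lengths had 0.00, 0.24, 0.12, -0.05 and 0.08.

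Of the groups by finger number, members with 1 to 4 fingers had the ratio nearest 0. That group also had the shortest median coding length, 1221 nucleotides, and the highest median abundance, 28.2 CPM. The median log2 WT ratio was -0.54 for the 5 members without a finger, -0.19 for 37 members with 1 to 4 fingers, -0.74 for 69 with 5 to 9, -0.73 for 85 with 10 to 14, and -0.84 for 43 with at least 15. It was -0.88 in the 99 KRAB members, of which 56 were lower and 1 higher, and -0.57 in the 140 others, with 74 lower and 17 higher. The KRAB members were less abundant, with a median of 6.65 CPM against 14.6 CPM. Less the median of genes of like length and abundance, the values were closer, at -0.68 and -0.58. The 119 other genes with 5 or more fingers and other names had -0.65, with 57 lower and 3 higher, and the 37 Zbtb genes, whose fingers are joined to a BTB domain, had -0.42. These medians are set side by side with no test of their differences. Across the 239 members, which differ in depth and length, Spearman's rho of the WT ratio was 0.26 with mean log2 CPM and -0.16 with the number of fingers.

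The lowest WT ratios among members with a mean of at least 10 CPM in these fractions were those of Zfp773 and Zfp57. The coding bases of the last finger of both are shown to let the zinc-binding codons be seen, with the codons of the cysteines and histidines in capitals, 5′ to 3′ on the coding strand of GRCm38 (mm10).
Zfp773: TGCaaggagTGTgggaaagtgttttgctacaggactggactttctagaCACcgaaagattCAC
Zfp57: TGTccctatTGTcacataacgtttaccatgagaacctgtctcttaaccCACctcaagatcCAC
The Zfp773 finger is the last of 8 and lies at chr7:7132219-7132281 on the minus strand in coding exon 4 of 4. The Zfp57 finger is the last of 3 and lies at chr17:37010051-37010113 on the plus strand in coding exon 3 of 3.

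Zfp57, which keeps methylation at imprinting control regions, was at 173, 169 and 174 CPM in the WT monosome of gradients 1 to 3. It was at 28.4, 30.1 and 49.5 CPM in the low polysome, with 9.11, 10.3 and 11.3 CPM in the high polysome. The high polysome therefore lay far below the monosome in all 3 gradients, with a log2 ratio of -4.06 ± 0.19 (SE, adjusted p = 6.0e-13 by limma). Zfp773, a KRAB member, had 61.3, 42.0 and 48.3 CPM in the WT monosome and 2.82, 2.90 and 2.73 CPM in the high polysome. Its log2 ratio was -4.10 ± 0.24 (adjusted p = 1.1e-11, limma). Of the 50-base stretches in the last 500 bases of its transcript, 18.8% also occurred in another gene, so its unique counts may be incomplete. Zfp329, Zfp692 and Zfp408 came next with log2 ratios of -3.40, -3.01 and -2.87.

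At the other end were Zfp106, Zfp207, Zfp512, Zfp318 and Zfp473, with log2 ratios of 0.89, 0.83, 0.79, 0.68 and 0.65. Zfp106 binds RNA, Zfp207 is a spindle protein also named BuGZ, and Zfp473 belongs to the U7 complex that processes histone mRNAs. Zfp106 had 244, 254 and 289.6 CPM in the WT monosome and 408, 556 and 502 CPM in the high polysome, with no overlap. Zfp473 was the least certain of these, with an adjusted p of 0.041 (limma), and no longer passed in 4 of 14 alternatives. None of the 5 rose or fell in translation level in KO, their adjusted p values being 0.27 or more (limma).

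To ask whether the loss of Ddx6 moved the members along the gradient, the KO log2 ratio less the WT log2 ratio was tested as an interaction. In KO more members rose than fell. Translation level rose for 38 of 239 members and fell for 2 (limma, adjusted p under 0.05), where 10.7% of all genes tested rose and 7.09% fell, and 66 members had an unadjusted p under 0.05. The median change was 0.34 on the log2 scale (interquartile range -0.07 to 0.72), against 0.02 over all genes, and 169 of 239 values were above 0. Of the 38 that rose, 16 were called lower in the KO monosome and not higher in the KO high polysome. Another 18 were called higher in the high polysome and not lower in the monosome, and 4 were both. Those calls share their libraries with the ratio, and the same split over all genes was not made. In KO the members still sat toward the monosome, with 94 lower and 33 higher and a median log2 ratio of -0.39, where 33.6% of all genes were lower and 35.0% higher. The medians of the KO gradients were -0.21, -0.34 and -0.33, all above those of the WT gradients. In 67 members (28.0%) all 3 KO ratios lay above all 3 WT ratios, where 21.2% of all genes did, and in 13 (5.44%) all lay below, where 17.8% did. The low polysome did not follow. No member rose and 1 fell in low polysome over monosome (limma), with 22 at an unadjusted p under 0.05 and 2 higher by edgeR and 3 by DESeq2, where 2.31% of all genes rose and 2.39% fell. The median change there was 0.06.

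**Figure D2:**
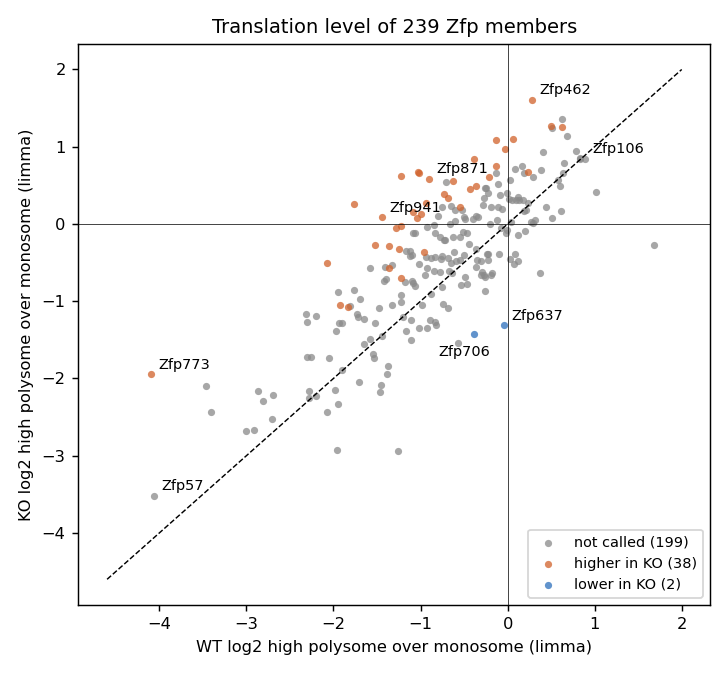
Log2 high polysome over monosome of the 239 members in WT (horizontal) and KO (vertical), from the limma fit. The dashed line marks equal values, and colours give the call of the KO effect at an adjusted p under 0.05, with 38 members higher, 2 lower and 199 not called. Most points lie above the line, and Zfp773 and Zfp57 are the leftmost.

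The KO effect on members was close to that on other genes of their length. In the class comparison the median member lay 0.13 above its class and 140 of 239 lay above, while the spread of this difference between gradients was 0.10 (SD). The change rose with coding length in members and in other genes alike. Its median was -0.22, 0.17, 0.33, 0.55 and 0.59 in members over the 5 length groups named above, and -0.40, -0.04, 0.22, 0.40 and 0.56 in the other protein-coding genes. Across members Spearman's rho with coding length was 0.32 and with the number of fingers 0.15 (n = 239, described only). With the trend on coding length removed, the median change of the members was 0.12, and 13 rose and 3 fell. Over all 11769 genes of that comparison 409 rose and 285 fell, against 1357 and 901 of the 12705 genes of the main fit. The rises thus dropped in members and in all genes alike. The falls dropped in all genes and went from 2 to 3 in members. The number that rose also rested on single gradients. It was 8 without KO gradient 3, 18 without WT gradient 2 and 20 without WT gradient 1, and over all genes the rises fell from 1357 to 466, 609 and 618. With no filter on low counts 20 members rose, where 978 of 27427 genes did. Scaling by library size alone gave 27 rises and 6 falls, and moved the median of all genes by -0.12. Over all genes it gave 936 rises and 1386 falls.

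**Figure D3:**
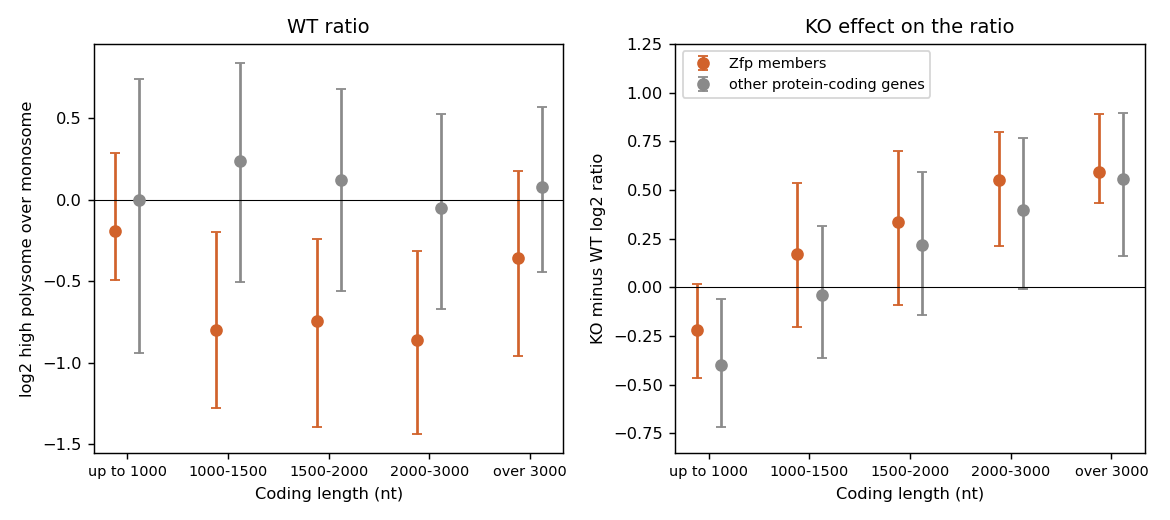
Median log2 high polysome over monosome in WT (left) and its KO effect (right) by coding length in nucleotides, for Zfp members (orange) and other protein-coding genes (grey). Bars are interquartile ranges over genes. In WT the members lie below the other genes in every length group, and on the right both sets rise with length, from -0.22 to 0.59 in members and from -0.40 to 0.56 in the others.

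The 99 KRAB members and the 140 others changed by a median of 0.31 and 0.37, with 15 and 23 rises and 0 and 2 falls. Other genes with 5 or more fingers changed by 0.40, with 27 of 119 rising and none falling, and Zbtb genes by 0.41, with 7 of 37 rising and none falling (limma, 38 and 14 with an unadjusted p under 0.05).

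The members that rose most, among those that averaged 10 CPM or more in the libraries compared, were Zfp773, Zfp941, Zfp871, Zfp462, Zfp281 and Zfp282. The first 3 of these carry a KRAB box. Zfp941 had 18.3, 19.3 and 21.96 CPM in the WT monosome and 6.55, 10.4 and 5.84 CPM in the WT high polysome. In KO it had 13.9, 18.1 and 15.8 CPM and 16.9, 15.98 and 17.8 CPM. The high polysome values of the genotypes did not overlap, and the monosome values differed by less (log2 -0.34 ± 0.22, adjusted p = 0.23 by limma). Its translation level rose by 1.53 ± 0.31 (SE, adjusted p = 0.003, limma). Zfp871 had 19.8, 22.9 and 27.4 CPM in the WT high polysome and 42.5, 43.4 and 57.5 CPM in the KO high polysome, again apart. It rose by 1.49 ± 0.31 (adjusted p = 0.0032).

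Zfp281, a factor that ESCs use to leave the naive state, had 47.8, 52.0 and 54.1 CPM in the WT monosome and 26.7, 34.6 and 35.3 CPM in the KO monosome. In the high polysome it had 17.5, 20.1 and 26.2 CPM in WT and 31.8, 32.5 and 28.0 CPM in KO. Both fractions moved, the monosome down and the high polysome up, without overlap in either, and its translation level rose by 1.23 ± 0.22 (SE, adjusted p = 0.0013 by limma). Zfp462, a heterochromatin factor with 33 fingers, changed by 1.33 ± 0.28 (adjusted p = 0.004). Its class of coding length changed by 0.60, and with the length trend removed its change was 0.71 with an adjusted p of 0.14. Zfp282 had 13.3, 9.60 and 15.5 CPM in the WT high polysome and 35.6, 41.7 and 36.5 CPM in the KO high polysome. It rose by 1.22 ± 0.32 (adjusted p = 0.014, limma) and no longer passed when WT gradient 1 or 2 or KO gradient 3 was left out, or with the length trend removed. In Zfp773 the change of 2.15 ± 0.34 (adjusted p = 0.00054) lay in the monosome, at 12.9, 10.9 and 10.9 CPM in KO. Its high polysome values of 2.12, 3.04 and 3.89 CPM overlapped those of WT.

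Zfp706 was the 1 member at that level that fell. It is a small protein with 1 finger that promotes exit from self-renewal, and its whole coding sequence is shown because it is the shortest of the members. The codons of the zinc-binding cysteines and histidines are in capitals.
Zfp706: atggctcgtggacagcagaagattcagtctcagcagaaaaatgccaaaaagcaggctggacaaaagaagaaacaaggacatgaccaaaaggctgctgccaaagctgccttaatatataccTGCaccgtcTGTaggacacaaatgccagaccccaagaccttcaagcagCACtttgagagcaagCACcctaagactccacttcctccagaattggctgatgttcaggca
These 228 bases run over 2 coding exons, between the outer positions chr15:37001854-37003820 on the minus strand of GRCm38. Zfp706 had 297, 258 and 277 CPM in the WT monosome, 577, 548 and 459 CPM in the low polysome, with 213, 217 and 206 CPM in the high polysome. In KO it had 363, 358 and 364 CPM, 383, 357 and 328 CPM, and 137, 132 and 135 CPM. The KO values were higher in the monosome and lower in both polysome fractions, with no overlap in any. Translation level fell by 1.04 ± 0.15 on the log2 scale (SE, adjusted p = 0.00027 by limma), and low polysome over monosome fell by 0.95 ± 0.15 (adjusted p = 0.0021, limma). With the length trend removed no member was called lower in low polysome over monosome, Zfp706 included. The median of its class of short abundant genes was -0.56 for the high polysome. In its last 500 bases 38.6% of the 50-base stretches occur in another gene. Zfp637, under 10 CPM over these libraries and described here after its values were seen, fell by 1.27 ± 0.31 (adjusted p = 0.0085, limma), and no longer passed without WT gradient 2 or with the length trend removed (adjusted p of 0.055 in both). Its KO monosome values of 18.1, 16.1 and 18.2 CPM lay above the WT values of 4.78, 6.04 and 6.63 CPM.

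**Figure D4:**
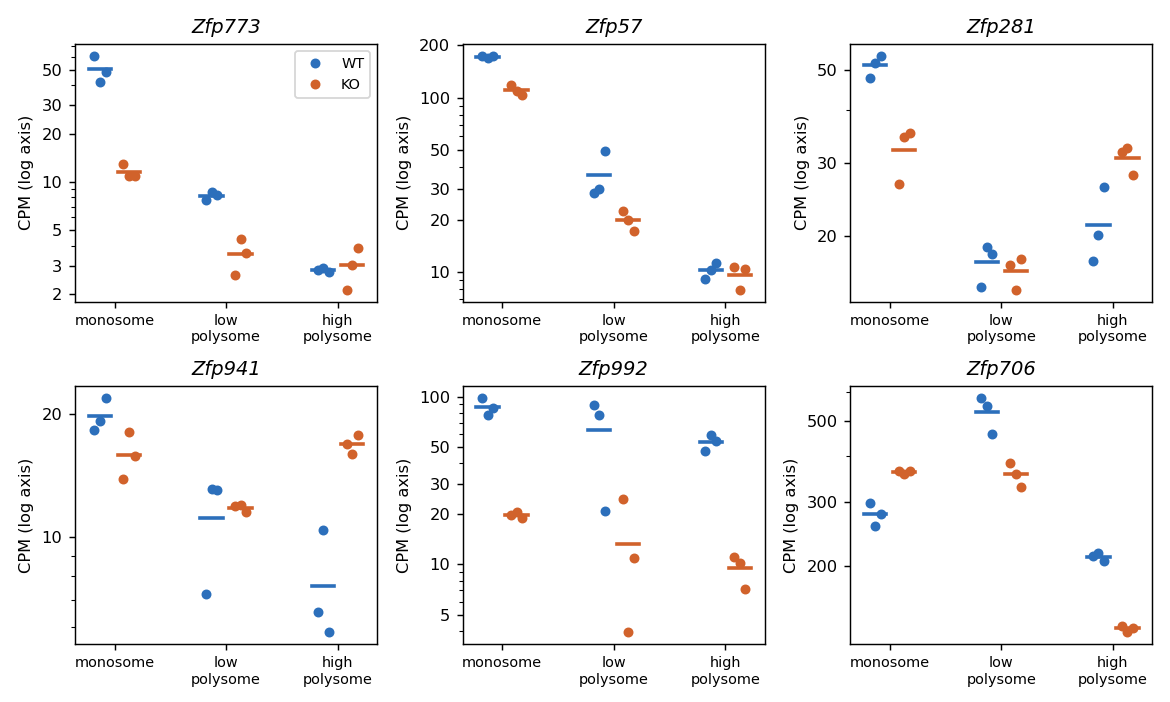
CPM on a log axis of 6 members in the 3 fractions of WT (blue) and KO (orange). Points are single libraries and bars are means of 3 gradients. In WT, Zfp57 falls from 172 CPM in the monosome to 10.2 CPM in the high polysome, Zfp941 rises in the KO high polysome to 16.9 CPM from 7.60 CPM, and Zfp992 is lower in KO in each fraction.

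To ask whether the members were also less abundant in KO, each fraction was compared between genotypes. These comparisons share their libraries with the ratios above, and in bulk samples fewer cells of a type and less RNA per cell cannot be told apart. Members were lower in the KO monosome and low polysome and close to even in the KO high polysome. In the monosome 83 fell and 10 rose (limma), where 20.1% of all genes fell and 18.6% rose. In the low polysome 87 fell and 15 rose, where 24.3% of all genes fell and 23.4% rose. In the high polysome 47 fell and 39 rose, where 21.1% of all genes fell and 25.3% rose. With other scalings the high polysome split was 58 against 34 (DESeq2 size factors) and 55 against 34 (library size alone). The median log2 differences were -0.44, -0.37 and -0.07, against -0.03, -0.03 and -0.01 over all genes. The 119 other genes with 5 or more fingers had -0.30, -0.36 and 0.02, with 33, 41 and 20 falling and 5, 9 and 29 rising. Lower monosome and low polysome values were thus not particular to the members. The 37 Zbtb genes had -0.25, -0.08 and 0.36. Against genes of like length and abundance the median member lay 0.43, 0.44 and 0.24 lower. The KO gradients each showed it, with medians of -0.41, -0.35 and -0.39 in the monosome and -0.38, -0.32 and -0.35 in the low polysome, where the first value is clone 1. Single gradients moved the counts. Without KO gradient 3, 54 members fell and 6 rose in the monosome and 25 rose in the high polysome. The monosome rises were 5 without WT gradient 2 and 3 without WT gradient 3, and 31 members fell in the high polysome without WT gradient 2. With no filter on low counts 52 fell in the monosome, and with the stricter filter 5 rose.

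KRAB members had the lower medians, a description with no test. Their median differences in monosome, low and high polysome were -0.65, -0.64 and -0.14. Among these 99 members, 42, 46 and 24 fell and 3, 5 and 14 rose. The other 140 members had -0.33, -0.24 and -0.02, with 41, 41 and 23 falling and 7, 10 and 25 rising. Of all genes 20.1%, 24.3% and 21.1% fell and 18.6%, 23.4% and 25.3% rose. In the high polysome 24.2% of KRAB members and 16.4% of the others fell, near and below the share of all genes. Coding GC moved with the KO differences. Across members Spearman's rho of coding GC with the KO difference was 0.31, 0.41 and 0.42 in the same order of fractions, and across the other protein-coding genes it was 0.10, 0.08 and 0.13. The genes of a library share its depth and preparation, so these are descriptions. Against genes of the same coding length and coding GC, a comparison added after the values were seen, the median member lay 0.35, 0.39 and 0.12 lower.

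The clusters differed among themselves. In the 10 members between Zfp990 and Zfp933 on chromosome 4 the median differences by fraction were -1.16, -1.44 and -1.58, with 8, 9 and 9 falling. Zfp933 was the exception, at 0.04 for low and 0.42 for high polysome. The 8 members between Zfp788 and Zfp819 on chromosome 7 had -0.87, -1.10 and -0.97, with 4, 7 and 6 falling. On chromosome 6 the 9 members between Zfp786 and Zfp775 had 0.42, 0.56 and 0.88, and none fell in any fraction. Without the chromosome 4 genes 75 of the other 229 members fell and 10 rose in the monosome, and 78 fell and 15 rose in the low polysome. In the high polysome 38 fell and 39 rose without them, so in the main fit the excess of falls there rested on this cluster. That does not hold for the other scalings. Their 58 falls against 34 rises (DESeq2 size factors) and 55 against 34 (library size alone) are gaps wider than a cluster of 10 genes.

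**Figure D5:**
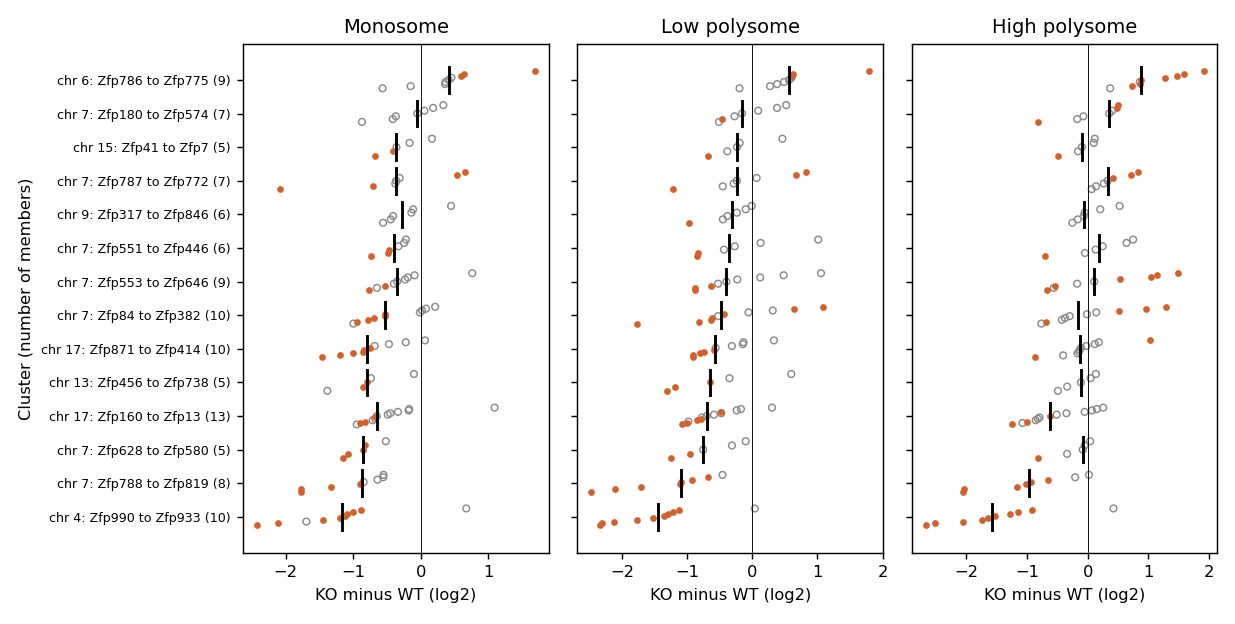
KO minus WT log2 difference of each member in the 14 position clusters, by fraction, with clusters ordered by their low polysome median. Filled orange points passed the test at an adjusted p under 0.05, open points did not, and black bars are cluster medians. The chromosome 4 cluster has medians of -1.16, -1.44 and -1.58 and the chromosome 6 cluster 0.42, 0.56 and 0.88.

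The chromosome 4 genes other than Zfp933 are close copies. Over 45 pairs of the 10 members, the aligned coding bases were 66.3% to 94.2% identical, with a median of 84.8%. Pairs with Zfp933 ran from 66.3% to 70.2% and pairs without it from 78.6% to 94.2%. Zfp992 and Zfp984 fell most in the monosome among members with a mean of at least 10 CPM there. Their last fingers are shown with zinc-binding codons in capitals.
Zfp992: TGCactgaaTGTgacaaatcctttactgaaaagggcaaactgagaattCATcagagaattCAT
Zfp984: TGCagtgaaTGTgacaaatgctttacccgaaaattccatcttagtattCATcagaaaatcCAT
Of these 63 bases 49 were identical, a lower share than the 91.1% over all aligned coding bases of this pair. The stretches lie at chr4:146467387-146467449 on the plus strand and chr4:147754773-147754835 on the minus strand of GRCm38, each in coding exon 3 of 3. Reads that fit more than 1 copy were dropped by the authors, so counts of copies with shared 3′ ends may be incomplete. In the last 500 transcript bases of Zfp984 35.3% of the 50-base stretches occur elsewhere, and of Zfp992 none.

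Zfp992 had 98.4, 78.3 and 85.4 CPM in the WT monosome and 19.8, 20.7 and 18.98 CPM in the KO monosome. In the high polysome it had 47.2, 58.8 and 54.7 CPM in WT and 11.1, 10.2 and 7.16 CPM in KO. The genotypes were well apart in both. In the low polysome WT gradient 3 was far below the others, at 89.8, 78.0 and 20.9 CPM, and lay within the KO range of 24.5, 3.96 and 10.96 CPM. Zfp992 fell by 2.12 ± 0.44 in the monosome (SE, adjusted p = 0.00077), by 2.34 ± 0.48 in the low polysome (adjusted p = 0.0005) and by 2.52 ± 0.48 in the high polysome (adjusted p = 0.00025, limma). Zfp984 had 18.3, 20.2 and 20.3 CPM in the WT monosome and 3.83, 4.83 and 2.57 CPM in the KO monosome, and fell there by 2.43 ± 0.25 (adjusted p = 3.7e-07). Zfp961 on chromosome 8 fell by 1.91 ± 0.22 in the low and 2.09 ± 0.24 in the high polysome. At the same level of abundance the largest rises were those of Zfp637 (1.53 ± 0.23) and Zfp777 (0.64 ± 0.20) in the monosome, Zfp592 (0.74 ± 0.13) and Zfp821 (0.70 ± 0.17) in the low polysome, with Zfp282 (1.59 ± 0.21) and Zfp956 (1.47 ± 0.20) in the high polysome. The adjusted p of Zfp777 was 0.015 in the monosome (limma), and it no longer passed without WT gradient 2 or 3 or KO gradient 1 or 3.

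Among the 7 members known to silence retroelements or keep imprints, 6 fell in the low polysome and none rose (limma), with a median of -0.83 on the log2 scale. Of all genes 24.3% fell and 23.4% rose. Falls were common in the family too, at 36.4% of all members and 46.5% of KRAB members, whose median was -0.64. Zfp819 changed by -2.11, Zfp809 by -1.18, Zfp445 by -1.17, Zfp57 by -0.83, Zfp638 by -0.59 and Zfp568 by -0.44, while Zfp932 gave -0.81 with an adjusted p of 0.12 (limma). Without WT gradient 3 the calls of Zfp638 and Zfp568 were lost, with adjusted p of 0.13 and 0.086, and Zfp932 passed at 0.0097 (limma). Zfp638 was also lost without WT gradient 2, without KO gradient 2 and with no filter, and Zfp568 with the compared groups only, while Zfp932 passed with the replicate block at an adjusted p of 0.042. Zfp819 is the weakest, with 2 to 60 counts per library, and Zfp932 shares 60.3% of its 3′ stretches with other genes. Zfp445 acts with Zfp57 at imprints, Zfp809 recognises the primer binding site of retroviruses, and Zfp638 silences unintegrated retroviral DNA with the HUSH complex. In the KO monosome 5 of the 7 fell and in the KO high polysome 3 fell, with none rising and medians of -0.78 and -0.92. Of all members 34.7% and 19.7% fell in these fractions, and of all genes 20.1% and 21.1%. In WT 4 of the 7 were lower in translation level and 1 was higher, beside 54.4% and 7.53% of the whole family and 32.2% and 28.9% of all genes. Zfp445 had a log2 ratio of -1.81 ± 0.23, Zfp809 -0.98 ± 0.25 and Zfp932 -1.96 ± 0.42, while Zfp568 stood at 0.50 ± 0.13. Zfp568, which silences a placental Igf2 transcript, alone of the 7 rose in translation level in KO, by 0.77 ± 0.19 (adjusted p = 0.0083, limma). It had 103, 109 and 115 CPM in the WT monosome and 64.7, 65.5 and 60.4 CPM in the KO monosome, with high polysome levels of 143, 155 and 167 CPM against 140.1, 157 and 164 CPM. The monosome values did not overlap and the high polysome values did, and the call was lost without KO gradient 3 or with the length trend removed.

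Of the 8 factors of pluripotent and embryonic cells, 4 rose in translation level and 1 fell in KO, where 10.7% of all genes rose and 7.09% fell. Those that rose were Zfp281 and Zfp462, given above, Zfp217, a partner of the demethylase KDM1A, by 0.85 ± 0.21 (SE, adjusted p = 0.0082), and the pluripotency factor Zfp296 by 0.63 ± 0.22 (adjusted p = 0.048, limma). The Zfp296 call passed in 4 of 15 alternatives. Zfp217 no longer passed without WT gradient 1 or with the length trend removed. Zfp706 fell, and Zfp143, Zfp207 and Zfp410, the activator of Chd4, gave -0.02 ± 0.29, 0.02 ± 0.18 and -0.48 ± 0.22. Zfp410 passed, as lower, with the compared groups only (adjusted p = 0.046, limma). In the low polysome 4 of the 8 fell, where 24.3% of all genes did, Zfp143 by 0.83, Zfp462 by 0.58, Zfp706 by 0.56 and Zfp207 by 0.48. The Zfp462 call there was lost without WT gradient 2 (adjusted p = 0.063) and without KO gradient 2 (0.068, limma).

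Zfp622 and Zfp593 serve the large ribosomal subunit, in its maturation and its export. Zfp622 had 62.5, 63.9 and 60.5 CPM in the WT monosome and 31.5, 28.5 and 21.3 CPM in the KO monosome, with high polysome values of 69.6, 58.2 and 68.4 CPM against 55.6, 54.1 and 63.5 CPM. It rose in translation level by 1.04 ± 0.26 (SE, adjusted p = 0.0097 by limma), and the call was lost without WT gradient 2 or KO gradient 3. Zfp593 gave -0.22 ± 0.17 (adjusted p = 0.39).

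The 25 co-repressors and heterochromatin genes through which KRAB proteins act had, in WT, a median log2 ratio of 0.27. Of these 25 genes 9 were higher and 4 lower, where 28.9% of all genes were higher and 32.2% lower. In KO 7 of the 25 rose in translation level and none fell, with a median of 0.48 and 13 at an unadjusted p under 0.05, where 10.7% of all genes rose. Their median coding length was 2619 nucleotides. Other protein-coding genes of 2000 to 3000 nucleotides changed by a median of 0.40 with 21.9% rising, and longer ones by 0.56 with 27.5% rising, so the 28.0% of this list was close to that of genes of its length. Trim28 itself rose by 1.15 ± 0.23 (SE, adjusted p = 0.0028, limma), Chd4 by 1.18 ± 0.26 and Ehmt1 by 0.91 ± 0.18, while Setdb1 gave 0.61 ± 0.27 (adjusted p = 0.12). In the low polysome 6 rose and 6 fell, 24.0% each way, near the 23.4% and 24.3% of all genes. The 3 genes left out by name gave 0.16 ± 0.39 (Zfp36), 0.36 ± 0.22 (Zfp42) and 0.30 ± 0.20 (Zfp598) for the KO effect, none of them called.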

How the data were processed

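Monosome, low polysome and high polysome RNA of 3 WT and 3 Ddx6 KO gradients was sequenced with QuantSeq 3′ FWD, 18 libraries in 6 groups of 3. The authors trimmed reads with Cutadapt 1.14, aligned them to mm10 with STAR 2.5.3a, kept unique alignments and counted them per Gencode gene with featureCounts 1.5.3, strand included, and the deposited values are these raw counts. Unique alignment loses reads shared between close copies, and 3′ tags do not show isoforms. The 92 spike-ins (28 to 169 counts per library) were left out.

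Genes with at least 3 CPM in at least 3 libraries were scaled by TMM (edgeR 4.0.16) and fitted with limma 3.58.1 (voom, 6 group means, R 4.3.3), with Benjamini-Hochberg adjustment over 12705 genes and a threshold of 0.05. Single-gradient ratios used log2 CPM plus 0.5. Coding lengths, fingers (pattern above) and KRAB boxes came from Gencode M21 coding sequences on GRCm38, read with Python 3.11.15 and Biopython 1.88, and sequences shown come from the same source. The fit was tested on simulated data.

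Named members were, by effect among those called with a mean of at least 10 CPM in the compared groups, up to 6 in each direction for the KO effect, 5 for the WT ratio and 2 for each fraction, plus those on the role lists. Members and lists were chosen with earlier results of these data known. Alternatives were DESeq2 1.42.0 and edgeR tests, other scalings, filters and comparison genes, fits of the compared groups alone, a replicate block and each gradient left out. Fractions of 1 gradient come from 1 lysate, while WT and KO gradients share only a number. Correlations of deviations within a gradient ran from -0.17 to 0.46 (median 0.09). Counting precision follows the depth of 2543617 to 11474550 counts.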

Additional observations from a re-analysis of the deposited data

Results flagged for a closer look

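The results below are those in which the ratio of fractions differed between WT and KO by the interaction test itself (limma, adjusted p under 0.05), which is why each is listed. For high polysome over monosome 38 members were higher in KO and 2 lower, and for low polysome over monosome 1 was lower. Among named members the log2 difference was 2.15 in Zfp773, 1.53 in Zfp941, 1.49 in Zfp871, 1.33 in Zfp462, 1.23 in Zfp281 and 1.22 in Zfp282. It was 1.04 in Zfp622, 0.87 in Zfp956, 0.85 in Zfp217, 0.79 in Zfp592, 0.77 in Zfp568 and 0.63 in Zfp296. It was -1.27 in Zfp637 and -1.04 in Zfp706, and for the low polysome -0.95 in Zfp706.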

How the results depend on the processing

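Of 1125 values of named members under alternatives, 1044 kept direction and side of the threshold, 50 lost the call, 6 gained it and 25 changed sign. Of 332 counts of calls, class differences and single-gradient medians 284 stayed close, 47 moved and 1 reversed. Of 114 fitted medians of the members 92 stayed close, 18 moved and 4 reversed. Causes were not tested.

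The 38 rises in translation level became 20 with no filter, 13 with the length trend removed and 8 to 36 with 1 gradient left out. Over all genes the 1357 rises became 978, 409 and 466 to 1500 in the same order. The 2 falls became 4 with DESeq2 size factors, 6 with library size alone, 6 with DESeq2, 7 with the compared groups only, 1 among members of at least 10 CPM and 1 to 3 with 1 gradient left out. For the low polysome 2 rose with edgeR, 3 with DESeq2 and 0 to 1 with 1 gradient left out. Falls there were 2 with DESeq2, 0 with the length trend removed and 1 to 2 with 1 gradient left out. With the replicate block 44 members rose in translation level, and in the low polysome 1 rose and 2 fell. The median low polysome effect turned to -0.0055 with library size alone, -0.075 with the length trend removed and ranged from -0.011 to 0.085 with 1 gradient left out.

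WT low polysome rises ranged from 10 to 18 with 1 gradient left out. In the KO monosome 5 rose with the stricter filter and 52 fell with no filter, and with 1 gradient left out 3 to 8 rose and 54 to 70 fell. In the KO high polysome 25 to 40 rose and 31 to 49 fell with 1 gradient left out.

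The WT high polysome difference from genes of like length and abundance was -0.78 with length classes alone and -0.78 with GC classes. For the WT low polysome it was -0.29 against the 50 nearest genes and -0.39 with GC classes. For the KO high polysome it was -0.62 with length classes, -0.58 in members of at least 10 CPM and -0.56 with GC classes. For KO against WT it was -0.33 and -0.35 in the monosome and -0.35 and -0.39 in the low polysome, for members of at least 10 CPM and GC classes in turn, and -0.12 with GC classes in the high polysome. With 1 gradient left out the KO high polysome difference ranged from -0.51 to -0.43, that of the low polysome effect from -0.10 to 0.0048 (above 0 only without KO gradient 2), and KO against WT from -0.44 to -0.37 in the monosome and -0.48 to -0.41 in the low polysome. A pseudocount of 2 CPM gave single-gradient medians of -0.35 and -0.54 for WT low and high polysome.

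Sign changed in uncalled members. In the stricter filter the WT ratio was -0.046 in Zfp143, -0.0038 in Zfp410 and -0.027 in Zfp622. The KO effect was 0.019 (edgeR) and 0.0044 (replicate block) in Zfp143, and 0.32 in Zfp593 with the length trend removed. In Zfp207 it was -0.038 with DESeq2 size factors, -0.11 with library size alone, -0.051 with DESeq2, -0.089 with no filter, -0.076 with the compared groups only and -0.12 with the length trend removed. With 1 gradient left out the KO effect ranged from -0.19 to 0.16 in Zfp809, -1.09 to 0.46 in Zfp819, -0.22 to 0.10 in Zfp143 and -0.12 to 0.10 in Zfp207, the WT ratio of Zfp143 from -0.084 to 0.22 and the KO low polysome difference of Zfp281 from -0.15 to 0.010.

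Comparison classes by the length of a reference protein were not run, since no such table was used here.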
